A study of Mus musculus with 9 samples.

Results

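The genes examined here encode semaphorins, their plexin and neuropilin receptors and the CRMPs (collapsin response mediator proteins), cytoplasmic proteins that act downstream of these receptors. Members were taken by gene symbol, as semaphorins of classes 3 to 7, class A to D plexins, *Nrp1*, *Nrp2*, *Crmp1* and *Dpysl2* to *Dpysl5*. This gave 35 of the 14670 genes in the table, with 20 semaphorins (7 secreted and 13 membrane-bound), 8 plexins, 2 neuropilins and 5 CRMPs. *Plxnb3* was not in the table and was not analysed here. RNA was sequenced from microdissected cerebral cortex of mouse embryos at E16.5, in 9 libraries, 3 from controls, 3 from *Fzd3* -/- mutants and 3 from *Celsr3* -/- mutants. The sample labels give the controls as +/+, whereas the methods describe them as littermates that were wild type or heterozygous, and the mutants had a mixed C57Bl/6 and CD1 background. Neither mutation was restricted to a cell type, and each library represents the whole dissected cortex with all its cell types. No source states whether a library came from 1 embryo or from several, so the *P* values measure the spread between these libraries only.

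Semaphorins are guidance cues that repel or attract growing axons and migrating neurons. Secreted class 3 semaphorins bind neuropilins, which signal through class A plexins, whereas most membrane-bound semaphorins bind plexins directly, and plexins act on small GTPases and the cytoskeleton. Fzd3 and Celsr3 are planar cell polarity proteins needed for major forebrain axon tracts, so the comparison asks whether transcripts of a separate guidance system differ in cortex without them.

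Expression was given as CPM as scaled by the authors, in columns that sum to between 990141 and 1012199, and the whole-read steps of each column correspond to between 39857305 and 69600589 reads per library. At these depths 3 reads correspond to between 0.0427 and 0.0752 CPM, and the lowest mean of a member over the libraries was 0.843 CPM (*Sema3d*), a level at which counting error adds to the spread. Groups were compared with limma on log2(CPM + 0.5), with adjustment over all 14670 genes and a threshold of 0.05 for the adjusted *P*. Fold changes below are on that log2 scale, where the added 0.5 draws the change of scarce genes towards 0. All 35 members passed the filter of a mean of 0.5 CPM. Replicates are numbered 1, 2 and 3 in controls and *Fzd3* mutants and 1, 2 and 4 in *Celsr3* mutants, and values are given in that order.

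Of the mutated genes, *Celsr3* was at 196, 243 and 214 CPM in controls and at 122, 139 and 118 CPM in *Celsr3* mutants, a log2 fold change of -0.78 (s.e. 0.0910, limma adjusted *P* = 0.0018). All 3 *Celsr3* mutant libraries were below every control. With the replicate block the log2 fold change was -0.71 and the call was lost (limma adjusted *P* = 0.0699). *Fzd3* was at 58.0, 67.7 and 46.9 CPM in controls and at 46.5, 39.8 and 59.6 CPM in *Fzd3* mutants, and these ranges overlapped (log2 fold change -0.24, s.e. 0.147, limma adjusted *P* = 0.24). Without *Fzd3* mutant replicate 3, the limma adjusted *P* for *Fzd3* was 0.0457, and without *Fzd3* mutant replicate 2 it was 0.633 with a log2 fold change of -0.11. The methods describe an *Fzd3* allele with a deleted exon, and a value for the whole gene does not check such a label. *Xist*, transcribed from the inactive X chromosome, was at 812, 850.2 and 0.803 CPM (controls), 998, 1008 and 1147 CPM (*Fzd3* mutants) and 806, 0.744 and 806 CPM (*Celsr3* mutants). Control replicate 3 and *Celsr3* mutant replicate 2 were therefore near 0 while all *Fzd3* mutant libraries were high, so *Xist* was not balanced between the genotypes.

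In *Fzd3* mutants 10 of the 35 members passed the threshold (28.6%), against 29.8% of all genes tested, so the share of members was near that of the whole table. Of the members 5 were higher, where 15% of all genes were higher, and 5 were lower, where 14.8% were lower. The 10 were *Sema3c*, *Sema3e*, *Sema4a*, *Sema4f* and *Sema7a*, which rose, and *Sema4d*, *Sema5a*, *Sema5b*, *Sema6d* and *Plxnb1*, which fell. By role they comprised 9 of 20 semaphorins, 1 of 8 plexins, 0 of 2 neuropilins and 0 of 5 CRMPs, and whether the roles differ in this share was not tested. Limma with voom weights also called 0 neuropilins and 0 CRMPs, and at an unadjusted *P* under 0.05 there were 0 neuropilins and 1 CRMP. At an unadjusted *P* under 0.05 there were 16 members (45.7%), against 41.4% of all genes, and the libraries of *Fzd3* mutants and controls did not overlap for 15 members, against 43.8% of all genes. The median log2 fold change was 0.06 over the members and -0.00056 over all genes. In *Celsr3* mutants limma called 0 of 35 members, against 0.307% of all genes, with 0 by limma with voom weights and 5 members (14.3%) at an unadjusted *P* under 0.05, against 5.45% of all genes. The *Celsr3* mutant and control libraries did not overlap for 4 members, against 10.4% of all genes. Both comparisons share the control libraries, and the values of each are given side by side below.

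**Figure D1:**
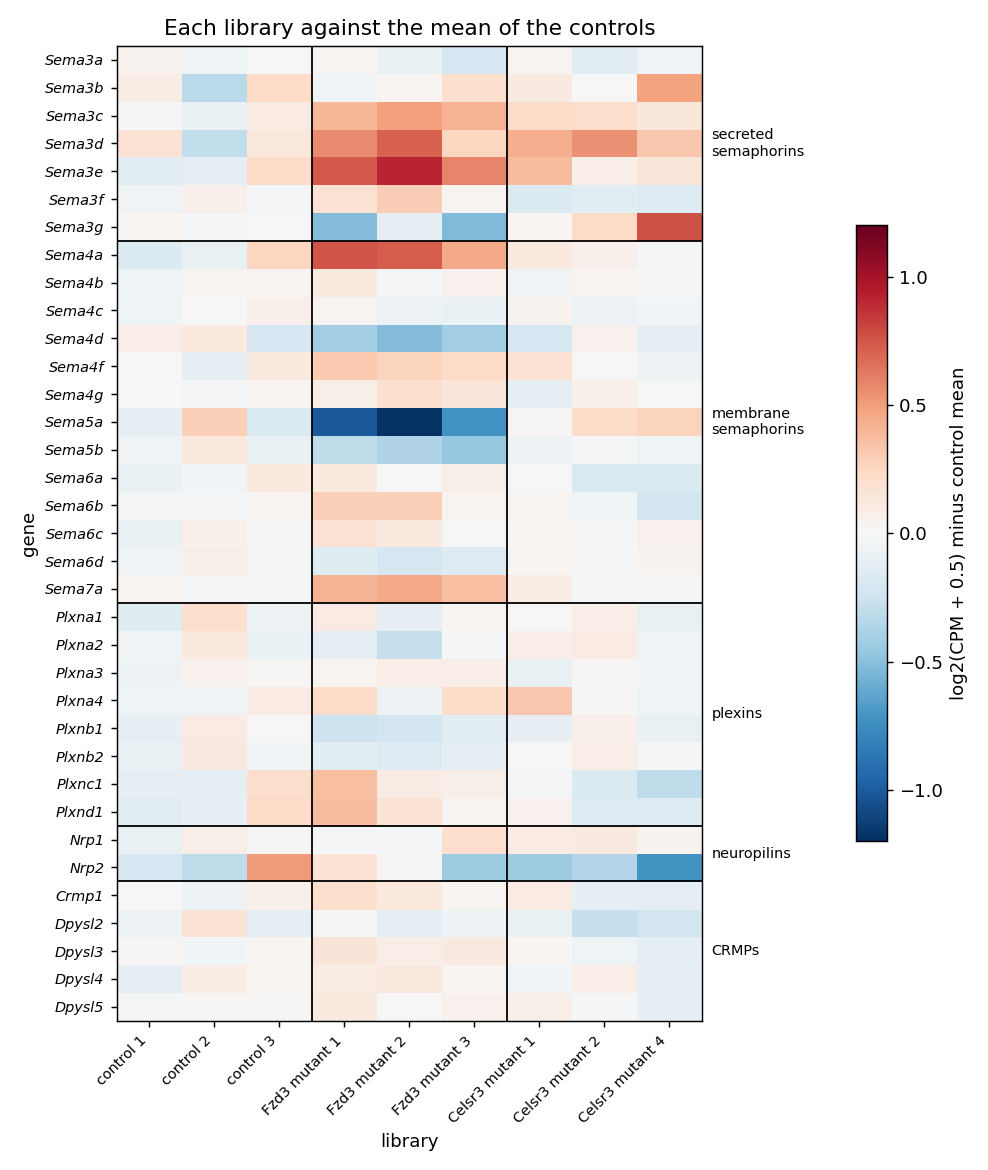
Heat map of log2(CPM + 0.5) minus the mean of the controls, with 1 row per gene, grouped by role, and 1 column per library. *Sema5a* is lowest in the 3 *Fzd3* mutant libraries and *Sema3e*, *Sema4a*, *Sema3c* and *Sema7a* are above the controls in each of them, while the rows of most plexins and CRMPs are pale.

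Marker transcripts of several cell types differed with the *Fzd3* genotype, and these values stand beside the results on semaphorins. Their counts can be read against the 15% of all genes that were higher and the 14.8% that were lower in *Fzd3* mutants. The labelled tissue was checked first, and the 10 cortical excitatory neuron markers were all in the table, with *Neurod6* most abundant and a sum of 2905 ± 129 CPM in controls (s.d., n = 3). Among ventral telencephalon and interneuron markers, 8 of 13 were in the table, and *Lhx8*, *Nkx2-1*, *Gsx2*, *Isl1* and *Six3* were not. The choroid plexus list had 0 of 6 genes in the table. Apical progenitor markers summed to 1425, 1482 and 1435 CPM (controls), 1099, 1161 and 1037 CPM (*Fzd3* mutants) and 1297, 1332 and 1413 CPM (*Celsr3* mutants). In *Fzd3* mutants 8 of these 10 genes fell and 0 rose, with *Vim* the most abundant. Intermediate progenitor markers summed to 609, 629 and 558 CPM (controls), 421, 429 and 475 CPM (*Fzd3* mutants) and 581, 638 and 646 CPM (*Celsr3* mutants). All 6 of them fell in *Fzd3* mutants, the most abundant being *Elavl2*.

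Of the neuronal lists, 7 of 10 cortical excitatory neuron markers fell and 1 rose in *Fzd3* mutants although their sum was 2889 ± 11.8 CPM (s.d., n = 3), whereas 3 of 9 pan-neuronal markers rose and 0 fell. Endothelial markers (10 of 10 in the table, *Kdr* most abundant) summed to 141, 140.0 and 148 CPM (controls), 209, 207 and 184 CPM (*Fzd3* mutants) and 147, 132 and 186 CPM (*Celsr3* mutants), and 4 rose in *Fzd3* mutants. For microglia (8 of 9, *Csf1r* most abundant) the sums were 35.1, 41.4 and 39.1, 63.2, 59.3 and 44.5 and 39.1, 42.9 and 51.2 CPM in the same order of genotypes, and 4 rose in *Fzd3* mutants. For oligodendrocyte precursors (5 of 5, *Pdgfra* most abundant) they were 29.4, 27.6 and 39.1, 71.2, 62.6 and 38.0 and 36.9, 26.9 and 32.2 CPM, and 3 rose. *Fzd3* mutant replicate 3 had the smallest rise of its group in each of these 3 lists. In the same mutants 1 of 6 pericyte and 1 of 6 Cajal-Retzius cell markers rose, and 2 of 4 thalamic (*Gbx2* not in the table), 1 of 6 red blood cell and 1 of 8 ventral markers fell. Except for the thalamic list these counts are near the shares of all genes, and the lists were not tested against each other. The thalamic markers *Calb2*, the most abundant, and *Rora* had log2 fold changes of 0.45 and 0.10 in *Fzd3* mutants. Neither was called (limma adjusted *P* = 0.09055 and 0.513). The thalamic sum was 17.8 ± 0.746 CPM in controls and 18.6 ± 2.94 CPM in *Fzd3* mutants (s.d., n = 3). It was not lower although 2 of its 4 genes were. Its largest term, *Calb2*, had a mean of 7.34 CPM in controls and 10.5 CPM in *Fzd3* mutants. Markers of meninges and fibroblasts (6 of 9, *Igf2* most abundant) summed to 36.9, 41.1 and 36.2 CPM (controls), 52.8, 54.6 and 42.8 CPM (*Fzd3* mutants) and 39.5, 37.4 and 241 CPM (*Celsr3* mutants). All *Fzd3* mutant sums were above the controls but limma called 0 of these 6 genes, and *Celsr3* mutant replicate 4 stood apart from all other libraries. In *Celsr3* mutants limma called 0 of the 93 marker genes in the table, with 0 by voom weights and 15 (16.1%) at an unadjusted *P* under 0.05, against 5.45% of all genes. Fewer cells of a type and less RNA per cell cannot be told apart in bulk tissue, and the part of these shifts in the results on semaphorins was not tested.

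**Figure D2:**
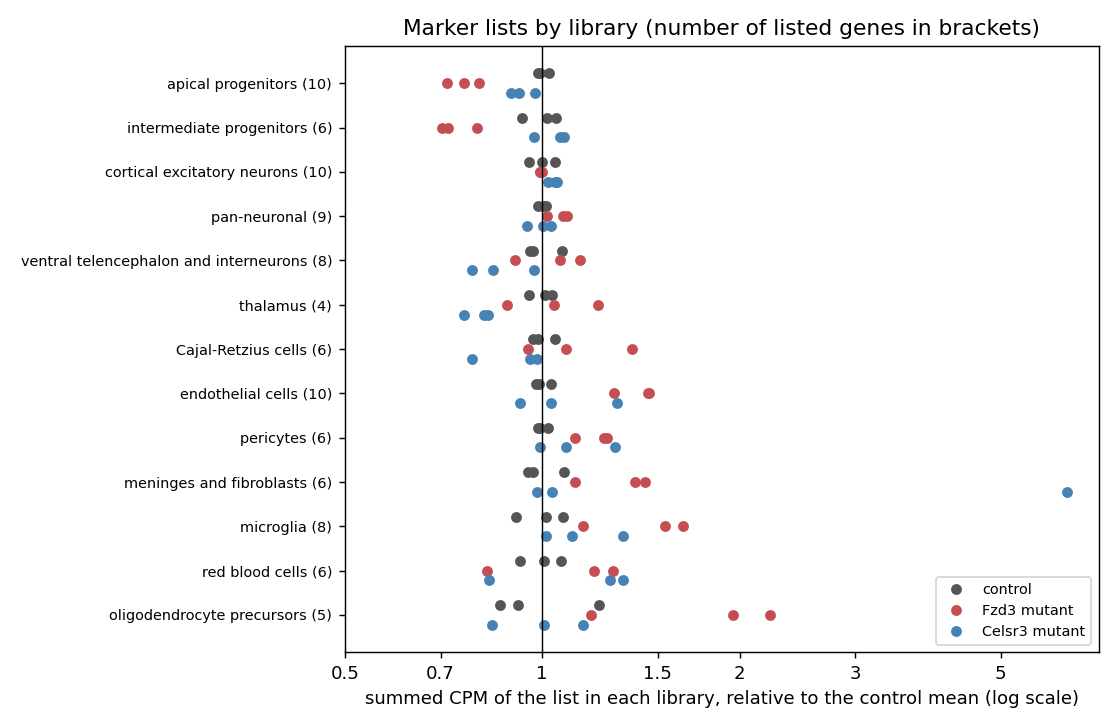
Summed CPM of each marker list in each library, divided by the mean of the controls (log scale), with points coloured by genotype. Apical and intermediate progenitor sums are lower in all 3 *Fzd3* mutant libraries, and 1 *Celsr3* mutant library is far to the right for meninges and fibroblasts.

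Among the secreted semaphorins, *Sema3c* had the highest level per length in controls, at 12.5 ± 0.784 CPM per kb of annotated exon (s.d., n = 3), followed by *Sema3f* at 9.76 ± 0.365 and *Sema3a* at 4.34 ± 0.137. *Sema3e*, *Sema3g*, *Sema3b* and *Sema3d* were all below 1 CPM per kb in controls. *Sema3c*, a cue for callosal axons, was at 87.9, 84.2 and 95.2 CPM in control, 117, 125 and 119 CPM in *Fzd3* mutant and 104, 103 and 98.1 CPM in *Celsr3* mutant cortex. The libraries of the 3 genotypes did not overlap, with *Fzd3* mutants highest and controls lowest. *Sema3c* rose by 35.2% in *Fzd3* mutants (log2 fold change 0.43, s.e. 0.0516, limma adjusted *P* = 0.000176). In *Celsr3* mutants its log2 fold change was 0.19 (s.e. 0.0516), with an unadjusted *P* of 0.00332 in limma and an adjusted *P* of 0.399.

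*Sema3e*, which signals through Plxnd1 without needing a neuropilin, was at 5.80, 5.88 and 7.57 CPM (controls), 11.0, 12.4 and 9.79 CPM (*Fzd3* mutants) and 8.47, 6.77 and 7.09 CPM (*Celsr3* mutants). Each *Fzd3* mutant library was above all others, and *Celsr3* mutants overlapped the controls. The rise in *Fzd3* mutants was 72.3% (log2 fold change 0.74, s.e. 0.131, limma adjusted *P* = 0.00178). *Sema3f*, a repellent acting through Nrp2, was at 49.1, 52.8 and 50.3 CPM in control, 57.2, 62.4 and 52.0 CPM in *Fzd3* mutant and 44.9, 46.5 and 45.5 CPM in *Celsr3* mutant cortex. Here the mutants lay on opposite sides of the controls, *Fzd3* mutants above them with some overlap and *Celsr3* mutants below without. Neither difference passed the threshold (limma adjusted *P* = 0.0684 and 0.884), although *Fzd3* mutants passed it without their replicate 3 (limma adjusted *P* = 0.0128). Without *Fzd3* mutant replicate 2 the log2 fold change went from 0.17 to 0.10 (limma adjusted *P* = 0.248).

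*Sema3g*, known from blood vessels, was at 2.02, 1.95 and 1.98 CPM (controls), 1.23, 1.79 and 1.22 CPM (*Fzd3* mutants) and 2.02, 2.43 and 3.72 CPM (*Celsr3* mutants). *Celsr3* mutant replicate 4 held the highest value, and the same library had the high sum of meningeal markers given above. No call was made for *Sema3g* against controls (limma adjusted *P* = 0.154 in *Fzd3* and 0.984 in *Celsr3* mutants). *Sema3b* was at 1.06, 0.673 and 1.23 CPM in control, 0.929, 0.993 and 1.18 CPM in *Fzd3* mutant and 1.09, 0.962 and 1.55 CPM in *Celsr3* mutant cortex and the groups overlapped. *Sema3a*, the best known repellent of this class, had means of 60.2 ± 1.90, 56.6 ± 4.42 and 58.2 ± 3.50 CPM in the same order (s.d., n = 3). Its log2 fold changes against controls, -0.09 and -0.05, did not pass the threshold. With single libraries left out they ran from -0.14 to -0.03 and from -0.09 to -0.01. For *Sema3d*, the least abundant member, the means were 0.569 ± 0.181, 1.02 ± 0.237 and 0.938 ± 0.113 CPM (s.d., n = 3), and neither mutant passed the threshold (limma adjusted *P* = 0.0626 and 0.89). *Fzd3* mutants passed it for *Sema3d* without their replicate 3 (limma adjusted *P* = 0.0369) and without a trend of the variance (0.0392). The 7 secreted semaphorins together gave 208, 204 and 217 CPM (controls), 249.9, 261 and 236 CPM (*Fzd3* mutants) and 223, 216 and 215 CPM (*Celsr3* mutants), a sum in which *Sema3c* was the largest term.

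The membrane-bound semaphorins held 7 of the 10 calls in *Fzd3* mutants, 3 higher and 4 lower among 13 genes (53.8%, against 29.8% of all genes), and whether this role differs from other genes was not tested. *Sema5a*, a transmembrane protein with thrombospondin repeats that can repel or attract axons, had the largest change of all members. It was at 111, 146 and 106 CPM (controls), 59.2, 52.4 and 71.9 CPM (*Fzd3* mutants) and 121, 139.5 and 144 CPM (*Celsr3* mutants). Every *Fzd3* mutant library was below every library of the other genotypes, which overlapped each other. *Sema5a* fell by 49.4% in *Fzd3* mutants (log2 fold change -0.97, s.e. 0.131, limma adjusted *P* = 0.000369). *Sema5b*, its closest relative, was at 45.8, 51.7 and 44.6 CPM in control, 38.2, 36.8 and 34.3 CPM in *Fzd3* mutant and 45.4, 46.7 and 45.7 CPM in *Celsr3* mutant cortex. The same separation held, with the *Fzd3* mutants below the other 6 libraries. *Sema5b* fell by 23.1% (log2 fold change -0.37, s.e. 0.0639, limma adjusted *P* = 0.00156).

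*Sema4d*, a ligand of Plxnb1, was at 44.5, 45.9 and 36.7 CPM (controls), 31.6, 29.3 and 31.5 CPM (*Fzd3* mutants) and 36.2, 43.7 and 39.2 CPM (*Celsr3* mutants). *Fzd3* mutants were below both other genotypes without overlap, and *Celsr3* mutants overlapped the controls. The fall in *Fzd3* mutants came to 27.3% (log2 fold change -0.45, s.e. 0.0901, limma adjusted *P* = 0.0038). *Sema6d*, which binds Plxna1, was at 104, 114 and 107 CPM in control, 97.5, 94.1 and 97.2 CPM in *Fzd3* mutant and 109.7, 107 and 111 CPM in *Celsr3* mutant cortex. The difference was small, 11.0% lower in *Fzd3* mutants, but without overlap (log2 fold change -0.17, s.e. 0.0431, limma adjusted *P* = 0.0141). It missed the threshold without *Fzd3* mutant replicate 2 (limma adjusted *P* = 0.0558) and without control replicate 2 (limma adjusted *P* = 0.0569), and with the replicate block the value was 0.0509.

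Of the membrane-bound semaphorins that rose, *Sema4a* was at 11.3, 11.9 and 15.2 CPM (controls), 21.7, 21.3 and 17.6 CPM (*Fzd3* mutants) and 13.8, 13.2 and 12.6 CPM (*Celsr3* mutants). The *Fzd3* mutant libraries were the 3 highest, and those of *Celsr3* mutants lay within the control range. *Sema4a* rose by 57.9% in *Fzd3* mutants (log2 fold change 0.64, s.e. 0.115, limma adjusted *P* = 0.00198). *Sema7a*, a membrane-anchored semaphorin that promotes axon growth and binds integrins and Plxnc1, was at 73.7, 71.3 and 71.6 CPM in control, 95.9, 99.2 and 92.8 CPM in *Fzd3* mutant and 77.0, 71.5 and 71.7 CPM in *Celsr3* mutant cortex. Its replicates were tight, and the *Fzd3* mutants stood clear of the other 6 libraries. The rise of 32.8% had the smallest adjusted *P* among the members (log2 fold change 0.41, s.e. 0.0457, limma adjusted *P* = 0.00013). *Sema4f* was at 22.5, 20.7 and 24.4 CPM (controls), 28.1, 27.1 and 26.5 CPM (*Fzd3* mutants) and 25.4, 22.3 and 21.6 CPM (*Celsr3* mutants). *Fzd3* mutants were above all others, by a narrow margin over *Celsr3* mutant replicate 1 (log2 fold change 0.27, s.e. 0.0787, limma adjusted *P* = 0.0237). This call depended on several libraries. The limma adjusted *P* was 0.0813 without *Fzd3* mutant replicate 1, 0.061 without replicate 2, 0.0599 without control replicate 1 and 0.092 without control replicate 2.

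**Figure D3:**
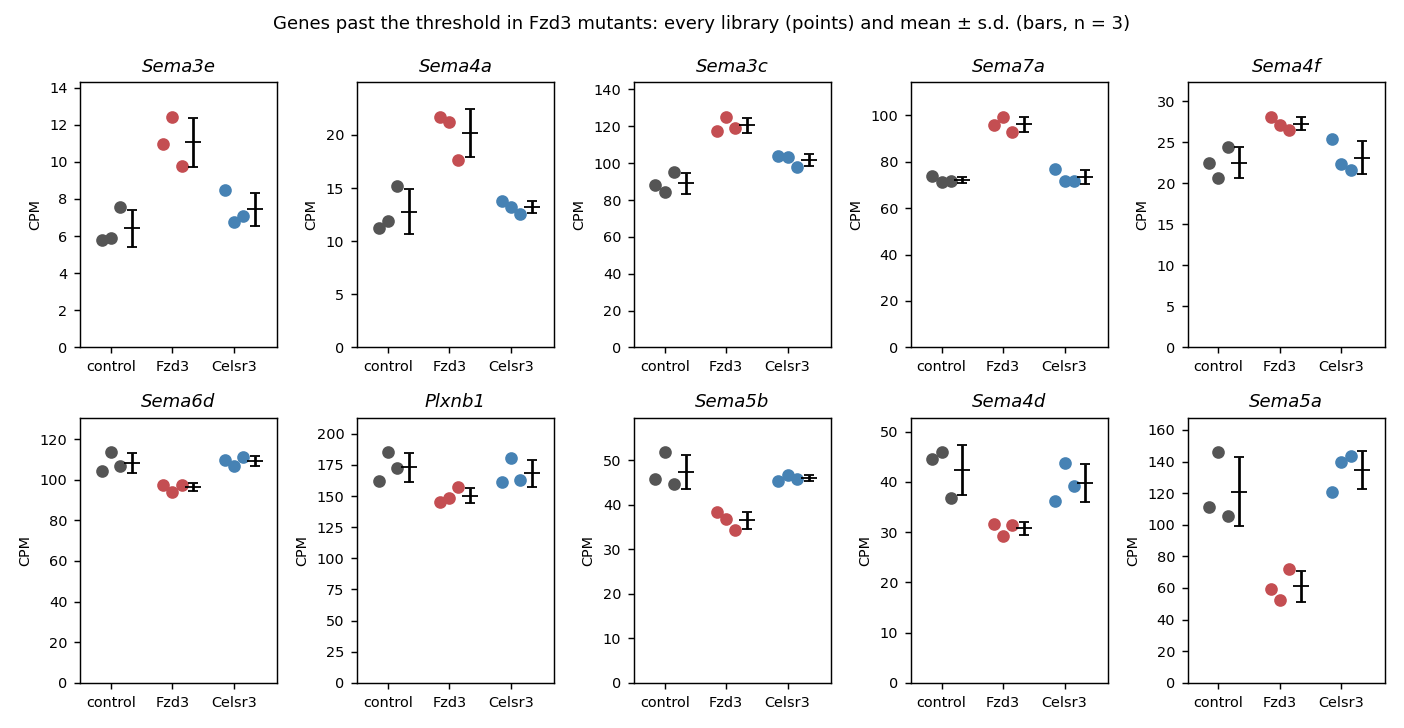
CPM of the 10 genes past the threshold in *Fzd3* mutants, with a point per library, bars for the mean ± s.d. (n = 3) and each vertical axis starting at 0. In every panel the 3 *Fzd3* mutant points are all above or all below the control points, with the widest gap for *Sema5a*.

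The remaining 6 membrane-bound semaphorins did not pass the threshold in *Fzd3* mutants. *Sema4c*, a partner of Plxnb2 and the member of this role with the highest level per length (24.9 ± 0.965 CPM per kb in controls, s.d., n = 3), was at 111, 114 and 119 CPM in control, 117, 109 and 108 CPM in *Fzd3* mutant and 118, 109 and 112 CPM in *Celsr3* mutant cortex. All 3 genotypes overlapped. *Sema4g* was at 149, 146 and 150.3 CPM (controls), 156, 171 and 164 CPM (*Fzd3* mutants) and 136, 155 and 149 CPM (*Celsr3* mutants). *Fzd3* mutants were above both other genotypes, by little (limma adjusted *P* = 0.0655 against controls, and 0.0371 without *Celsr3* mutant replicate 1). With *Xist* as a covariate *Sema4g* passed the threshold (limma adjusted *P* = 0.0437). *Sema6b* was at 51.8, 52.4 and 54.2 CPM in control, 64.7, 64.5 and 54.2 CPM in *Fzd3* mutant and 53.9, 51.4 and 45.4 CPM in *Celsr3* mutant cortex. *Fzd3* mutant replicate 3 did not exceed the highest control, and without it the limma adjusted *P* went from 0.0714 to 0.012. Leaving out *Celsr3* mutant replicate 4 also brought it past the threshold (limma adjusted *P* = 0.0481). *Sema4b*, *Sema6a* and *Sema6c* had log2 fold changes of 0.05, 0.06 and 0.10 in mutants of *Fzd3* and of -0.01, -0.12 and 0.02 in those of *Celsr3*. With single libraries left out the *Fzd3* values ran from 0.02 to 0.08, from 0.02 to 0.12 and from 0.06 to 0.15. Those of *Celsr3* mutants ran from -0.03 to 0.01, from -0.18 to -0.06 and from -0.02 to 0.05. In sum the 13 genes gave 932 ± 32.7 CPM (controls), 906 ± 14.9 CPM (*Fzd3* mutants) and 937 ± 8.61 CPM (*Celsr3* mutants) (s.d., n = 3). Both mutants overlapped the controls, and all *Fzd3* mutant sums were below those of *Celsr3* mutants.

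Promoter windows from RefSeq (GRCm38.p6, 250 bases before to 50 after the start) were matched to 27 of the 35 members, 18 of them with a single window, and for the others the first listed window was used. Windows are shown for the 2 genes with the largest change in each direction among the called members with a single window, chosen after their values were seen. *Sema5a* (chr15:32244563-32244862, plus strand) and *Sema5b* (chr16:35541112-35541411, plus strand) fell in *Fzd3* mutants, and *Sema3e* (chr5:14025026-14025325, plus strand) and *Sema3c* (chr5:17574566-17574865, plus strand) rose.
Sema5a: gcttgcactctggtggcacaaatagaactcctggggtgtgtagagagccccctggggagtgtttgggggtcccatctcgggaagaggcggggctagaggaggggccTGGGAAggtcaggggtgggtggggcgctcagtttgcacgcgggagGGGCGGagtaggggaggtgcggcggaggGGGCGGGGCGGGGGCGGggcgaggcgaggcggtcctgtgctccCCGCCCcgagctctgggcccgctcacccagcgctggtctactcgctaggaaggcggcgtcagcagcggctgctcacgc
Sema5b: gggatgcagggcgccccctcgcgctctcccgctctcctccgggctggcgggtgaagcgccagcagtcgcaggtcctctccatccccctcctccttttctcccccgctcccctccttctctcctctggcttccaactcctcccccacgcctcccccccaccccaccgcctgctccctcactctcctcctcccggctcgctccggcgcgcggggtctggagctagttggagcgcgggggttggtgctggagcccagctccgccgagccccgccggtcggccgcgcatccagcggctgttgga
Sema3e: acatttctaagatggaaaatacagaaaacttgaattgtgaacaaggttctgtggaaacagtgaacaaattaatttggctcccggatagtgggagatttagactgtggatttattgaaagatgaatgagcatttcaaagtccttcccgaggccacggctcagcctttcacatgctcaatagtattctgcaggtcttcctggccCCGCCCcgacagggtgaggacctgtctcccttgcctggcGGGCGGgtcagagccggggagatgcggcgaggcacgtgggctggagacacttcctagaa
Sema3c: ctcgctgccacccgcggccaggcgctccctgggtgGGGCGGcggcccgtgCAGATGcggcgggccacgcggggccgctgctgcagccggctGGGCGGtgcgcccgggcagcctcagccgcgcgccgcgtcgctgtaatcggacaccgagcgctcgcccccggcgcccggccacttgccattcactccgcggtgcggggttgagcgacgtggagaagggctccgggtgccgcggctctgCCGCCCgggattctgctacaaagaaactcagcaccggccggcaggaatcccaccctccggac
Capitals mark matches on either strand to 3 motifs, CATCTG (an E-box bound by proneural factors), TGGGAA (the core bound by Rbpj, the effector of Notch signalling) and GGGCGG (a GC box), where neighbouring GC boxes may overlap. The *Sema5a* window held 5 GC boxes and 1 TGGGAA, that of *Sema5b* held 0 of the 3 motifs, that of *Sema3e* held 2 GC boxes and that of *Sema3c* held 3 GC boxes and 1 CATCTG. Over the members with a window, 1 of 27 held CATCTG, 8 held TGGGAA and 22 held GGGCGG, against 11.3%, 22.8% and 65.2% of 9873 promoters of genes in the table. The median GC content was 65.3% in the members and 61.3% in all these promoters. The matches describe the letters of these windows only, and binding was not measured.

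Among the plexins the class A and B receptors had the highest levels per length. In controls *Plxna3*, *Plxna2* and *Plxnb2* were at 38.7 ± 1.55, 38.7 ± 2.98 and 38.5 ± 2.67 CPM per kb (s.d., n = 3), levels that did not differ beyond their spread. *Plxna1* and *Plxna4* followed at 25.8 ± 3.33 and 22.7 ± 1.37 CPM per kb, then *Plxnb1* at 18.1 ± 1.21, and *Plxnd1* and *Plxnc1* were lowest at 8.86 ± 1.27 and 7.13 ± 0.939. *Plxnb1*, the receptor of Sema4d, was at 162, 185 and 173 CPM (controls), 146, 148 and 157 CPM (*Fzd3* mutants) and 161, 181 and 163 CPM (*Celsr3* mutants). *Fzd3* mutants were below both other groups without overlap, though the lowest control and the lowest *Celsr3* mutant were close to them. *Plxnb1* fell by 13.2% in *Fzd3* mutants (log2 fold change -0.20, s.e. 0.0595, limma adjusted *P* = 0.0251). The call was lost without *Fzd3* mutant replicate 1 (limma adjusted *P* = 0.0923), without *Fzd3* mutant replicate 2 (0.0769), without control replicate 2 (0.0969), without a trend of the variance (0.0628) and with *Xist* as a covariate (0.0584).

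The other 7 plexins were not called against controls in either mutant. *Plxnb2*, which binds Sema4c, was at 281, 321 and 290.4 CPM in control, 273, 267 and 275 CPM in *Fzd3* mutant and 298, 313 and 295 CPM in *Celsr3* mutant cortex. The *Fzd3* mutants lay below the controls without overlap but missed the threshold (log2 fold change -0.13, limma adjusted *P* = 0.0729), which they passed without control replicate 1 (limma adjusted *P* = 0.0401). Without control replicate 2 the log2 fold change was -0.07 (limma adjusted *P* = 0.255). *Plxna3*, an X-linked co-receptor of the neuropilins, was at 291, 315 and 309 CPM (controls), 313, 322 and 323 CPM (*Fzd3* mutants) and 286, 308 and 299 CPM (*Celsr3* mutants), and both mutants overlapped the controls. *Plxnc1*, the plexin that binds Sema7a, was at 55.2, 54.8 and 68.6 CPM in control, 76.2, 62.9 and 62.3 CPM in *Fzd3* mutant and 58.6, 52.8 and 47.8 CPM in *Celsr3* mutant cortex, again with overlap. *Plxna1*, *Plxna2*, *Plxna4* and *Plxnd1* had log2 fold changes of 0.01, -0.14, 0.13 and 0.19 in *Fzd3* mutants, and their standard errors were 0.0830, 0.0709, 0.0989 and 0.106. With single libraries left out these values ran from -0.06 to 0.11, from -0.20 to -0.07, from 0.08 to 0.22 and from 0.10 to 0.31 in the same order. The 8 plexins summed to 2118 ± 112 CPM (controls), 2071 ± 109.5 CPM (*Fzd3* mutants) and 2144 ± 95.6 CPM (*Celsr3* mutants) (s.d., n = 3), and these sums overlapped.

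Of the neuropilins, *Nrp1* was at 25.3 ± 1.47 CPM per kb in controls and *Nrp2* at 5.61 ± 1.86 (s.d., n = 3). *Nrp1*, the receptor of Sema3a, was at 232, 261 and 250.4 CPM (controls), 245, 246 and 284 CPM (*Fzd3* mutants) and 265, 266 and 254 CPM (*Celsr3* mutants), and all groups overlapped. *Nrp2*, the receptor of Sema3f, was at 55.7, 51.8 and 91.8 CPM in control, 72.2, 64.8 and 47.8 CPM in *Fzd3* mutant and 47.8, 50.3 and 38.8 CPM in *Celsr3* mutant cortex. Control replicate 3 stood well above the other controls, and all *Celsr3* mutants were below the controls. Its spread among controls, a coefficient of variation of 33.2%, was the largest of any member, and its log2 fold change of -0.50 in *Celsr3* mutants (s.e. 0.203) did not pass the threshold (limma adjusted *P* = 0.863). Without control replicate 3 the log2 fold change was -0.24, and without control replicate 2 it was -0.65 (limma adjusted *P* = 0.563).

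The CRMPs include the most abundant members. Per length, *Dpysl3* was at 386 ± 8.41 CPM per kb in controls, *Crmp1* at 191 ± 7.82, *Dpysl5* at 123 ± 1.80 and *Dpysl2* at 72.0 ± 7.53 (s.d., n = 3), all above every semaphorin and receptor, whereas *Dpysl4* was at 12.4 ± 0.874. *Dpysl3*, which like other CRMPs binds cytoskeletal proteins in growing neurites, was at 2576, 2484 and 2584 CPM (controls), 2832, 2691 and 2739 CPM (*Fzd3* mutants) and 2595, 2458 and 2370.1 CPM (*Celsr3* mutants). Its *Fzd3* mutant libraries were above all others, with a log2 fold change of 0.11 against controls that missed the threshold (s.e. 0.0466, limma adjusted *P* = 0.0933). *Dpysl2*, the mediator of collapse by Sema3a, was at 311, 364 and 301 CPM in control, 319.8, 299 and 310.2 CPM in *Fzd3* mutant and 305, 267 and 277 CPM in *Celsr3* mutant cortex. Its groups overlapped, and the *Celsr3* mutants had a log2 fold change of -0.20 (s.e. 0.0705, limma adjusted *P* = 0.768). This value was -0.11 without control replicate 2 and -0.25 without *Celsr3* mutant replicate 1. *Crmp1*, *Dpysl4* and *Dpysl5* had log2 fold changes of 0.12, 0.08 and 0.06 in mutants of *Fzd3* and of -0.04, -0.02 and -0.02 in those of *Celsr3*, and none passed the threshold. With single libraries left out the *Fzd3* values ran from 0.08 to 0.16, from 0.02 to 0.12 and from 0.03 to 0.08. Those of *Celsr3* mutants ran from -0.11 to -0.01, from -0.07 to 0.03 and from -0.06 to 0.02. The 5 genes summed to 5187, 5129 and 5275 CPM (controls), 5759.9, 5440.1 and 5438 CPM (*Fzd3* mutants) and 5355, 4944 and 4799.6 CPM (*Celsr3* mutants). The *Fzd3* mutant sums were above those of controls and *Celsr3* mutants without overlap. In the same libraries 3 of 9 pan-neuronal markers were higher and 0 lower than in controls. Of 10 cortical excitatory neuron markers 1 was higher and 7 were lower. Of all genes 15% were higher and 14.8% lower.

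**Figure D4:**
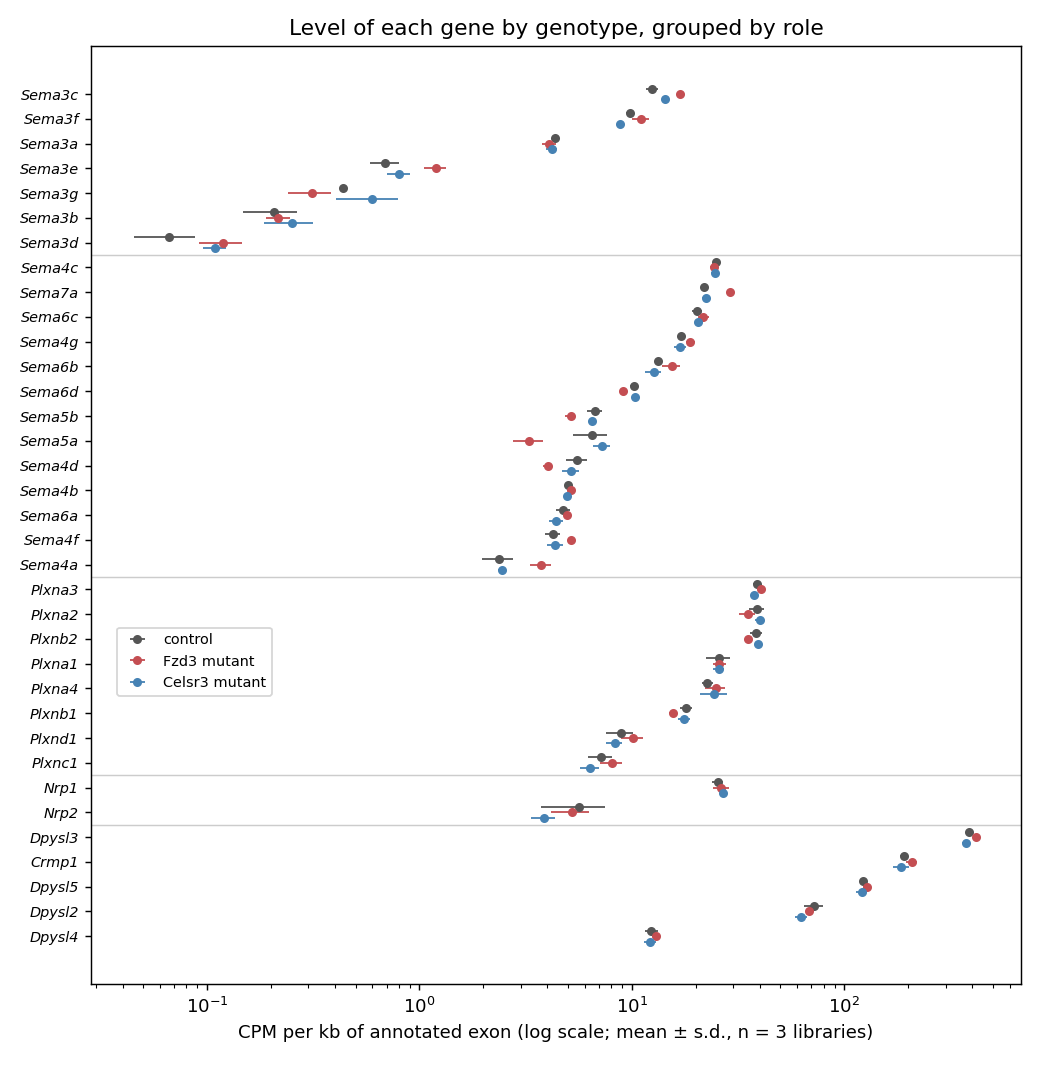
CPM per kb of annotated exon on a log axis for each of the 35 members, as mean ± s.d. of 3 libraries per genotype, ordered by the control level within each role. Members span from 0.0662 CPM per kb (*Sema3d*) to 386 CPM per kb (*Dpysl3*) in controls.

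In *Celsr3* mutants the 5 members at an unadjusted *P* under 0.05 were *Sema3c*, *Dpysl2*, *Nrp2*, *Sema3f* and *Sema3d*. Their log2 fold changes were 0.19, -0.20, -0.50, -0.15 and 0.44, and the smallest limma adjusted *P* among all members was 0.399, for *Sema3c*. The groups did not overlap for *Sema3c* and *Sema3d*, which were higher, and *Sema3f* and *Nrp2*, which were lower. *Sema5a*, which fell in *Fzd3* mutants, had a log2 fold change of 0.17 (s.e. 0.131) in *Celsr3* mutants, between 0.08 and 0.31 with single libraries left out. *Sema7a*, *Sema4a* and *Sema5b* were at 0.02, 0.06 and -0.04, with standard errors of 0.0457, 0.115 and 0.0639. Their signs depended on single libraries, with ranges from -0.01 to 0.04, from -0.03 to 0.18 and from -0.08 to 0.02. Over all members the values ranged from -0.50 (*Nrp2*) to 0.44 (*Sema3d*), with a median of -0.02. Both extremes depended on single controls. For *Nrp2* the value was -0.24 without control replicate 3 and -0.65 without control replicate 2. For *Sema3d* it was 0.29 without control replicate 2 and 0.53 without control replicate 1.

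**Figure D5:**
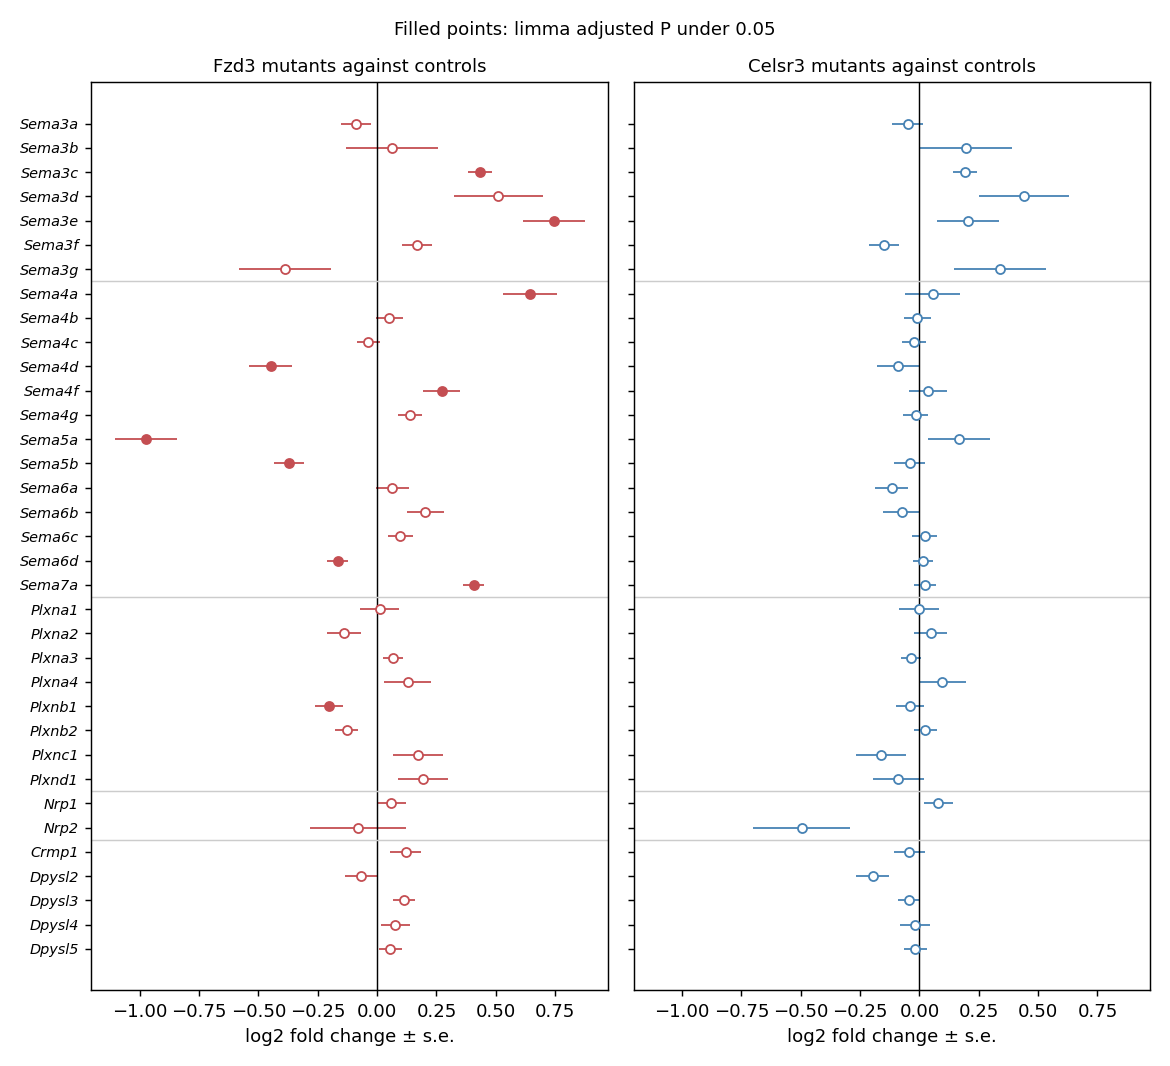
Log2 fold change ± s.e. of each member in *Fzd3* mutants (left) and *Celsr3* mutants (right) against the same controls, with filled points at a limma adjusted *P* under 0.05. The left panel has 10 filled points, from -0.97 (*Sema5a*) to 0.74 (*Sema3e*), and the right panel has 0.

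The mutants were also compared with each other in the same fit, which tests the difference between them. Here 16 of 35 members passed the threshold (45.7%), against 29.6% of all genes, and whether the members differ from other genes in this share was not tested. In *Fzd3* mutants relative to *Celsr3* mutants 10 were higher, where 15.3% of all genes were higher, and 6 were lower, where 14.3% were lower. The higher genes were *Sema3c*, *Sema3e*, *Sema3f*, *Sema4a*, *Sema4f*, *Sema4g*, *Sema6b*, *Sema7a*, *Plxnc1* and *Dpysl3*, and the lower ones *Sema3g*, *Sema4d*, *Sema5a*, *Sema5b*, *Sema6d* and *Plxnb2*. *Sema5a* again had the largest change, a log2 difference of -1.14 (s.e. 0.131, limma adjusted *P* = 0.000185). For *Sema7a* the difference was 0.38 (s.e. 0.0457, limma adjusted *P* = 0.000223) and for *Sema3f*, called in neither mutant against controls, it was 0.32 (s.e. 0.0638, limma adjusted *P* = 0.00393). *Plxnb1* missed the threshold in this comparison (limma adjusted *P* = 0.061). It passed without *Fzd3* mutant replicate 3 (limma adjusted *P* = 0.0461) and without control replicate 2 (0.0437), and with only these genotypes in the fit (0.0476). The count fell to 9 without *Celsr3* mutant replicate 4 and to 10 without *Fzd3* mutant replicate 1.

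Of these 16 calls, 8 were past the threshold whichever library was left out (*Sema3c*, *Sema3e*, *Sema3f*, *Sema4a*, *Sema5a*, *Sema5b*, *Sema6d* and *Sema7a*), and the other 8 depended on single libraries. With the replicate block *Sema3c*, *Sema3e*, *Sema4a* and *Sema6d* also lost the call (limma adjusted *P* = 0.0858, 0.0963, 0.0509 and 0.108), so that *Sema3f*, *Sema5a*, *Sema5b* and *Sema7a* were the 4 calls left under it. *Sema3g* had a limma adjusted *P* of 0.0159, of 0.058 without *Celsr3* mutant replicate 4 and of 0.0616 without *Fzd3* mutant replicate 1, and its log2 difference went from -0.73 to -0.48 with the block. For *Sema4d* it was 0.0121, and 0.0526 without *Celsr3* mutant replicate 2. *Sema6b* was at 0.0204, at 0.0843 and 0.0812 without *Fzd3* mutant replicates 1 and 2, and at 0.0804 without *Celsr3* mutant replicate 4 (limma adjusted *P*). *Plxnc1* was at 0.0349, at 0.139 and 0.0504 without *Fzd3* mutant replicates 1 and 2, and at 0.0829 and 0.125 without *Celsr3* mutant replicates 2 and 4. *Dpysl3* was at 0.0277, at 0.103 without *Fzd3* mutant replicate 1, and at 0.0849 and 0.105 without *Celsr3* mutant replicates 2 and 4. With quantile normalization the log2 difference of *Dpysl3* went from 0.16 to 0.08 (limma adjusted *P* = 0.213). *Plxnb2*, at 0.038, lost the call without any 1 of the 6 mutant libraries, with limma adjusted *P* values from 0.0568 (*Fzd3* mutant replicate 3 left out) to 0.136 (*Celsr3* mutant replicate 2 left out). *Sema4f*, at 0.0423, lost it without *Fzd3* mutant replicate 1, 2 or 3, *Celsr3* mutant replicate 2 or 4 or control replicate 1, with values from 0.0565 to 0.144. *Sema4g*, at 0.043, lost it without *Fzd3* mutant replicate 2 or 3, *Celsr3* mutant replicate 1 or 4 or control replicate 1, with values from 0.0585 to 0.153.

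Other settings ended some of the same calls between the mutants. With *Xist* as a covariate *Plxnb2*, *Dpysl3* and *Sema4f* missed the threshold (limma adjusted *P* = 0.0723, 0.0512 and 0.0512). Without a trend of the variance the values were 0.0879 for *Plxnb2*, 0.0533 for *Dpysl3*, 0.0738 for *Plxnc1*, 0.058 for *Sema4f* and 0.0918 for *Sema4g*. With quantile normalization *Plxnb2* and *Sema4g* were at 0.0704 and 0.0682. *Sema4g* also missed the threshold with equal medians (0.0542) and with only the mutants in the fit (0.0636). *Crmp1*, *Dpysl5*, *Nrp2*, *Plxna2*, *Plxnd1* and *Sema6a* were not called between the mutants with all libraries, and each passed under at least 1 alternative, with limma adjusted *P* values from 0.0149 to 0.0496.

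Ligands and receptors known to bind each other were set side by side in *Fzd3* mutants, a choice made after their values were seen. *Sema4d* and its receptor *Plxnb1* both fell, with log2 fold changes of -0.45 and -0.20, the latter call depending on the libraries named above. *Sema3e* rose while *Plxnd1* had a log2 fold change of 0.19 (limma adjusted *P* = 0.196), which was 0.31 without control replicate 3 (limma adjusted *P* = 0.0329) and 0.10 without *Fzd3* mutant replicate 1. *Sema7a* likewise rose, and *Plxnc1* had a log2 fold change of 0.17 (limma adjusted *P* = 0.244), between 0.08 and 0.28 with single libraries left out. *Sema6d* fell, and *Plxna1* was at 0.01 (limma adjusted *P* = 0.939). *Sema3c* rose, and *Nrp1* and *Nrp2* were at 0.06 and -0.08 (limma adjusted *P* = 0.505 and 0.799). Both signs depended on single libraries, with *Nrp1* at -0.01 without *Fzd3* mutant replicate 3 and *Nrp2* at 0.17 without control replicate 3. Apart from *Plxnb1*, the receptors set beside called ligands did not pass the threshold with all libraries in the fit.

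Further genes of the pathway were taken from 6 lists with 47 genes, all in the table. In *Fzd3* mutants 9 were higher and 7 lower (34.0%, against 29.8% of all genes). In *Celsr3* mutants limma called 0 of 47, against 0.307% of all genes, and 0 with voom weights. At an unadjusted *P* under 0.05 in limma there were 3 (6.38%), near the 5.45% of all genes. By list, 5 of 11 co-receptors and transmembrane partners rose and 2 fell in *Fzd3* mutants, and 2 of 11 small GTPases rose and 2 fell. Of 7 exchange factors and GTPase-activating proteins 1 rose and 1 fell, of 3 MICAL monooxygenases 1 rose, and among 4 semaphorin-processing proteases and 11 kinases and cofilin pathway genes 1 fell in each. *Met*, a receptor tyrosine kinase that associates with Plxnb1, was at 14.5, 12.9 and 18.8 CPM (controls), 50.6, 54.6 and 40.2 CPM (*Fzd3* mutants) and 20.0, 13.2 and 13.5 CPM (*Celsr3* mutants). The *Fzd3* mutant libraries were far above the rest (log2 fold change 1.63, s.e. 0.174, limma adjusted *P* = 9.62e-05). *Mical2*, of a family of actin-oxidizing enzymes downstream of plexins, was at 14.5, 10.4 and 16.7 CPM in control, 46.9, 43.3 and 36.9 CPM in *Fzd3* mutant and 14.8, 14.6 and 11.96 CPM in *Celsr3* mutant cortex. It separated the *Fzd3* mutants in the same way (log2 fold change 1.59, s.e. 0.153, limma adjusted *P* = 5.08e-05). *Rnd2*, a small GTPase of migrating cortical neurons, was at 106, 109.9 and 112 CPM (controls), 61.0, 60.6 and 63.5 CPM (*Fzd3* mutants) and 105, 99.7 and 110.0 CPM (*Celsr3* mutants). Here the *Fzd3* mutants were lowest, again without overlap (log2 fold change -0.82, s.e. 0.0467, limma adjusted *P* = 9.39e-07).

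The members lie on 17 chromosomes of GRCm38. Chromosome 5 holds 6 of them, among them the neighbours *Sema3d* (start 12383385), *Sema3a* (13125414), *Sema3e* (14025276) and *Sema3c* (17574281). Of these neighbours *Sema3e* and *Sema3c* rose in *Fzd3* mutants. *Sema3d* and *Sema3a*, which were not called, had log2 fold changes of 0.51 and -0.09. Within 5 Mb of the mutated genes lie *Dpysl2*, 1.61 Mb from *Fzd3* on chromosome 14, and *Plxnb1*, *Sema3f* and *Sema3b*, which are 0.269, 1.14 and 1.23 Mb from *Celsr3* on chromosome 9. None of these 4 was called by limma in the mutant of the nearby gene, and the unadjusted *P* in limma was 0.367 for *Dpysl2* in *Fzd3* mutants and 0.513, 0.0379 and 0.333 for *Plxnb1*, *Sema3f* and *Sema3b* in *Celsr3* mutants.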

How the data were processed

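The authors deposited CPM values for 14670 genes in 9 libraries. The submitters' processing notes name FastQC, TopHat, Bowtie, TopHat2, Cufflinks 2.1.1, edgeR 2.12 and the builds GRCm38 and GRCh37, without their roles, and the use of strand is not given in the sources used here, so reads of overlapping or near-identical genes cannot be told apart. RNA was extracted with Trizol per the labels, whereas the methods name RNeasy. In each library 100% of the lower values were whole multiples, within 0.1 read, of the smallest value above 0, taken as 1 read. Genotypes come from the labels, and 0 columns were left unused.

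Groups were compared on log2(CPM + 0.5) by limma 3.58.1 under R 4.3.3 (functions lmFit, contrasts.fit and eBayes, with the variance trend), with all 9 libraries in the same fit, a filter at a mean of 0.5 CPM and Benjamini-Hochberg adjustment over 14670 genes, two-sided, at 0.05. Tables were made in Python 3.11.15 with numpy 2.4.6 and pandas 2.3.3. Exon lengths (union of annotated exons) and positions come from GENCODE M21 for GRCm38, matched by symbol for all 35 members and 13786 of 14670 genes, and need not be those the authors used. Promoter windows come from RefSeq (GRCm38.p6).

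Library values are given for members past the threshold in any of the 3 comparisons, for the member of each role with the highest control CPM per kb and for members within 5 Mb of a mutated gene, with *Nrp2* added after its values were seen, and among partner genes the 3 with the largest called change are named per mutant. *Mical3* is listed under 2 identifiers, and the higher was used. The members, the 14 marker lists and the 6 partner lists were chosen with earlier results of these data known. Alternatives covered the filter, pseudocount, scaling, libraries in the fit, replicate block, the variance trend and the omission of each library in turn. Voom weights on whole reads and *Xist* (above or below 10 CPM) as a covariate were added after seeing the data.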

Additional observations from a re-analysis of the deposited data

How the results depend on the processing

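The number of members called in *Fzd3* mutants against controls was 10 under most alternatives and lay between 7 and 13 with single libraries left out, and in *Celsr3* mutants it was 0 under every alternative run. Between the mutants it was 16, and 9 to 19 with single libraries left out. No source says that replicate numbers pair the samples, and deviations from the group means correlated at -0.199 to 0.192 between libraries of different genotypes with the same number and at -0.163 to 0.188 between those with different numbers. With the replicate block the counts were 9 against controls in *Fzd3* mutants, 0 in *Celsr3* mutants and 4 between the mutants. Number 4 occurs only in *Celsr3* mutants, so that the block removes this library from the comparisons. Without a trend of the variance 11 members were called between the mutants, and with quantile normalization 14, and the cause of these shifts was not tested. The *Celsr3* call in *Celsr3* mutants was lost with the block (log2 fold change -0.71, limma adjusted *P* = 0.0699). Of 78 results on single genes 31 were calls, and 15 of these calls held under every alternative. Over all 78 results, called or not, 1632 of 1710 alternatives stayed on the same side of the threshold, 68 lost and 10 gained a call. Testing without a filter repeats the same fit, since all 14670 genes had passed the filter, and is among those unchanged. The sign changed in 0 cases with a call in either fit and in 33 without. Ordering members by CPM in place of CPM per kb kept 4 of the 5 highest.

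The quasi-likelihood test of edgeR, DESeq2 and TMM scaling, all planned on recovered reads as alternatives, were not run, because the deposited values are not counts and too few low values were available to accept reads recovered from them as counts. The voom weights and the read totals rest on the same recovered reads and share this limit.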
